A study of Mus musculus with 24 samples.

Results

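The 78 mouse genes whose symbols begin with Mrpl or Mrps, followed by a number and at most 1 letter, are named for proteins of the mitochondrial ribosome. They were taken by symbol from the 23972 genes of a liver count table, and all 78 such symbols of the gene annotation were present. Of these, 49 carry the prefix Mrpl, for the large subunit, and 29 the prefix Mrps, for the small subunit. The prefix does not place every protein, since MRPS30 and MRPS18A are part of the large subunit and MRPS36 is known as a component of the oxoglutarate dehydrogenase complex. The 78 genes are counted here by symbol alone. Liver RNA was sequenced from 24 female mice, each giving 1 polyA-selected, strand-marked library. Control mice (labelled Lmna.WT) carried a floxed Lmna gene without Cre. Lmna-ADKO mice (labelled Lmna.KO) carried the same floxed gene with Cre driven by the adiponectin promoter, so lamin A/C was deleted in adipocytes and not in hepatocytes, and the mice were lipodystrophic. The labels name the treatments Vehicle and Rescue and do not say what Rescue is. The study made AAV8 vectors for FGF21, a hormone made mainly by the liver, and for the soluble receptor sTGFBR2, and it describes liver sequencing for its experiment with FGF21 alone, so Rescue is read here as that vector. By the account of that experiment the mice were 12 to 14 weeks old at the start, were housed at 22°C, received a high-fat diet for 4 weeks before treatment and were euthanized 8 weeks after it. There were 7 control livers with vehicle, 3 control livers with rescue, 6 Lmna-ADKO livers with vehicle and 8 Lmna-ADKO livers with rescue. Libraries are named as labelled, by genotype, treatment (Veh for Vehicle, Tx for Rescue) and animal number.

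Mitochondria keep a small genome of their own and translate its messages on their own ribosome. The RNA of that ribosome is encoded in the mitochondrial genome, whereas every one of its proteins is encoded in the nucleus, made in the cytosol and imported. The mitochondrial ribosome makes only membrane subunits of the respiratory chain and of ATP synthase, so its supply must be matched to respiratory subunits that are encoded in the nucleus. Hepatocytes, which oxidize fatty acids, are rich in mitochondria.

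The mRNA level of the family did not separate the groups, and it followed single libraries. The level was taken for each library as the mean over the 78 genes of log2 CPM (counts scaled to a common library size by edgeR's TMM method), each gene set against its own mean over all libraries. In control livers with vehicle the level ran from -0.17 through a median of -0.018 to 0.30. The 3 control livers with rescue stood at -0.24, 0.033 and 0.66. In Lmna-ADKO livers with vehicle it ran from -0.14 through a median of -0.092 to 0.041, and in those with rescue from -0.22 through a median of -0.085 to 0.70. All 4 groups overlapped. The highest value of 3 of the groups came from libraries WT.Veh_491 (control, vehicle), WT.Tx_8990 (control, rescue) and KO.Tx_8974 (Lmna-ADKO, rescue), and the other 21 libraries lay between -0.24 and 0.11. Mrpl and Mrps genes moved together, with levels of 0.70 and 0.69 in library KO.Tx_8974 and 0.66 and 0.64 in library WT.Tx_8990.

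**Figure D1:**
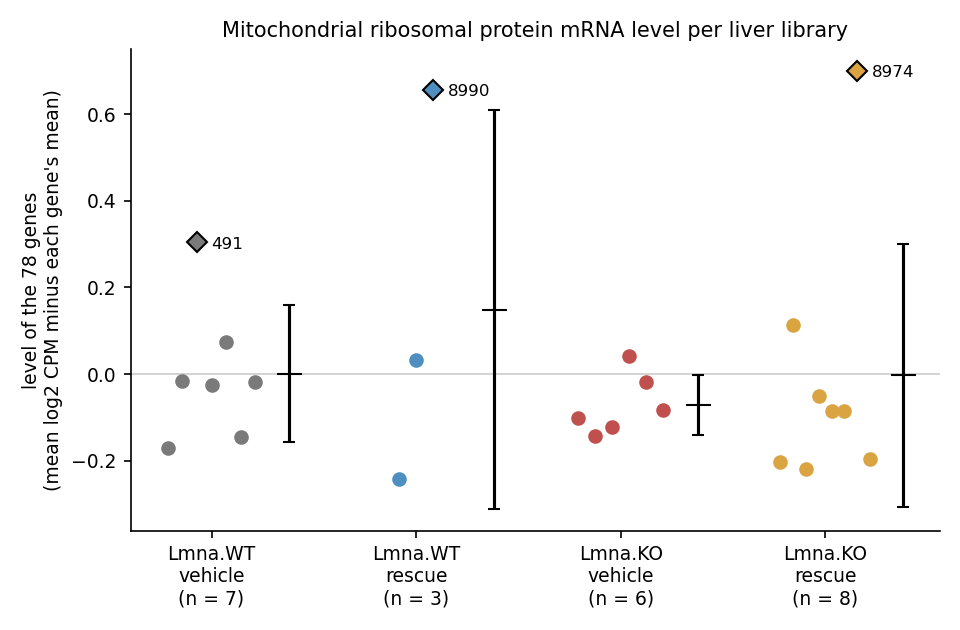
Level of the 78 genes in each library (y axis, mean log2 CPM minus each gene's own mean) for the 4 groups (x axis). Points are libraries, diamonds the libraries KO.Tx_8974, WT.Tx_8990 and WT.Veh_491, and bars show the mean and SD of the group. Libraries KO.Tx_8974 and WT.Tx_8990 lie at 0.70 and 0.66, library WT.Veh_491 at 0.30 and the remaining 21 libraries between -0.24 and 0.11.

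These 3 libraries stood apart from the rest of the series in more than this family. Library KO.Tx_8974 held the highest value of its group for 73 of the 78 genes, library WT.Tx_8990 for 77 and library WT.Veh_491 for 68. Short mRNAs were overrepresented in all 3. Over 9616 other protein-coding genes, the slope of a library's deviation on log2 mRNA length was -0.36 in library KO.Tx_8974, -0.35 in library WT.Tx_8990 and -0.18 in library WT.Veh_491, and it lay between -0.084 and 0.14 in the other 21 libraries. The Mrpl and Mrps genes have short mRNAs, with a median of 1302 bp (418 to 7300 bp) against 2848 bp over protein-coding genes. In library KO.Tx_8974 the 39 members with shorter mRNAs had a level of 0.88 and the 39 with longer mRNAs a level of 0.52. In library WT.Tx_8990 these levels were 0.74 and 0.57, and in library WT.Veh_491 they were 0.32 and 0.29. The short mRNAs of cytosolic ribosomal proteins (79 genes in this level) were high in the same libraries, at 0.86, 1.08 and 0.56, and so were those of nuclear respiratory chain subunits (77 genes), at 0.81, 0.77 and 0.37. The level of the 78 genes and the length slope were correlated over all 24 libraries (Pearson r = -0.98) and over the other 21 (r = -0.90). Leaving out the 3 libraries therefore does not remove this relation. The part of mRNA length or RNA quality in the results that follow was not tested beyond the values given, and the comparisons of the members are given with and without these 3 libraries.

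**Figure D2:**
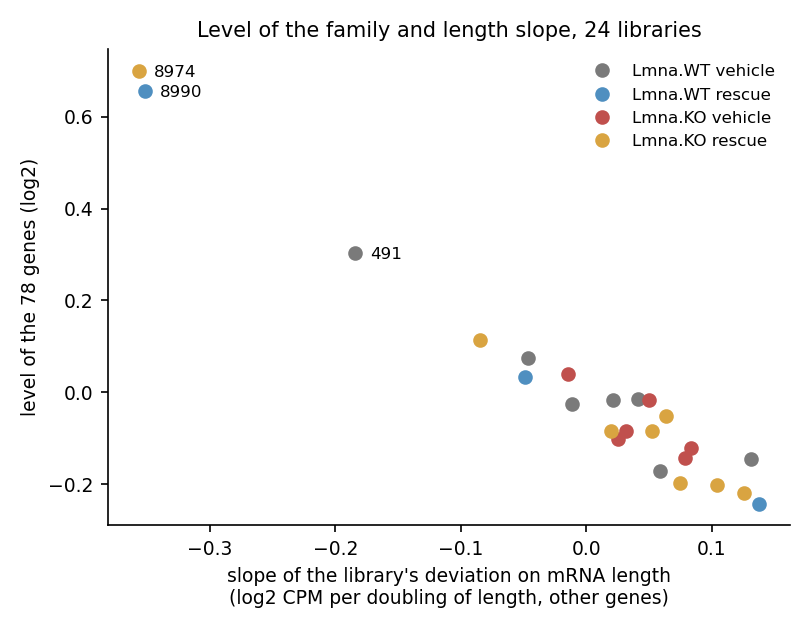
Level of the 78 genes in each of the 24 libraries (y axis, log2) against the slope of that library's deviation on log2 mRNA length over other protein-coding genes (x axis). Colors mark the groups. Libraries with lower slopes have higher levels, with libraries KO.Tx_8974 and WT.Tx_8990 (slopes of -0.36 and -0.35) at the upper left and library WT.Veh_491 (slope of -0.18) next.

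Total counts were even, between 19863304 and 21510054 per library. All 78 genes were well measured, with a mean of at least 214.6 counts and no library under 157 counts. In bulk liver, fewer cells of a type and less RNA per cell cannot be told apart. The hepatocyte genes Alb, Apoa1, Ttr, Tat, Cps1 and Serpina1a together gave 65950 to 139000 CPM, so the label liver held in all 24 libraries. Lmna does not check the deletion here, because adipocytes are few in liver, and it ran from 15.7 to 22.1 CPM in the controls and from 23.6 to 31.0 CPM in the Lmna-ADKO livers given vehicle (log2 fold change 0.52, adjusted p = 0.0032). Fgf21 did not set the livers labelled Rescue apart from those with vehicle, with 3.14 to 7.40 against 1.90 to 10.8 CPM in controls (adjusted p = 0.92) and means of 5.36 against 7.98 CPM in Lmna-ADKO mice (adjusted p = 0.73). Whether the vector's transcript would be counted under the mouse gene was not tested, and the group is called rescue below.

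The members with the highest levels per kilobase of mRNA, averaged over all libraries, were Mrpl12 at 88.3, Mrps21 at 68.8 and Mrpl14 at 64.1 CPM per kb. MRPL12 forms the flexible stalk of the large subunit. The lowest were Mrps25 at 3.94, Mrpl47 at 3.16 and Mrpl19 at 2.46 CPM per kb. The median was 23.5 CPM per kb for Mrpl and 14.9 CPM per kb for Mrps genes. The shortest mRNAs were those of Mrpl52 (418 bp), Mrpl33 (478 bp) and Mrps21 (488 bp), and the longest those of Mrps17 (5061 bp), Mrps25 (6073 bp) and Mrpl17 (7300 bp). In library KO.Tx_8974 the short Mrpl52 and Mrps21 mRNAs lay 1.24 and 1.22 above their own means on the log2 scale.

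Promoters were sought for the members with the smallest p between genotypes in each direction, in RefSeq's promoter table of GRCm38.p6. It has a window of 300 bases, 250 before the start of transcription and 50 from it on, for 69 of the 78 genes. Mrpl15 and Mrps35 have no entry. Annotated exons of Tmem63b and Mrpl14 cover the whole stretch before the start of Mrpl14, so it is not printed. The bases before the start that no annotated exon covers are given for Mrpl16 and Mrpl20, the members with the smallest p among those higher in Lmna-ADKO livers with vehicle. With all libraries Mrpl16 was called and Mrpl20 was not. Without libraries KO.Tx_8974, WT.Tx_8990 and WT.Veh_491 both were called. Capitals mark the TATA box letters TATAAA, the only motif of those searched that stood in either window.
Mrpl16, chr19:11770165-11770390, plus strand: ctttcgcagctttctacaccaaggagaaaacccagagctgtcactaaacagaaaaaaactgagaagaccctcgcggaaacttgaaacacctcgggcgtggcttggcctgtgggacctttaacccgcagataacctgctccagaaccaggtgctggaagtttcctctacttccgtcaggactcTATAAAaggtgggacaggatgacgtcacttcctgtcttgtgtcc
Mrpl20, chr4:155802628-155802877, plus strand: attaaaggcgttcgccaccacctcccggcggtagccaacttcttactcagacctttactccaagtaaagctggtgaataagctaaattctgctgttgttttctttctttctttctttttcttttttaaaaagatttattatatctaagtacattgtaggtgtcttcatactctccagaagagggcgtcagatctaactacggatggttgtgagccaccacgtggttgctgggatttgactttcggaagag

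The family has no single promoter motif among those searched, but several motifs of housekeeping and mitochondrial genes were frequent. Each was searched on both strands of the 300 bases, and a match is a description of the letters only. The core of NRF1, a regulator of respiratory genes, GCGCATGCG, stood in 7 of the 69 members with a window (10.1%) and in 1.95% of the 27025 genes in the table. The core of GABPA, CCGGAAGT, stood in 12 members (17.4%) and in 4.31% of genes. For the YY1 core, AAGATGGCG, the counts were 8 members (11.6%) and 1.64% of genes, and for the SP1 core, GGGGCGGGG, 13 members (18.8%) and 12.9% of genes. TATAAA stood in 5 members (7.25%) and in 15.7% of genes. All NRF1 matches lay before the start, and they are printed with 10 bases on each side, on the strand of the gene, with the core in capitals. Where the letters read GCGCATGCGC, matches on both strands overlap and 1 of them is shown. For Mrpl32, which holds a further match, the one farthest from the start is shown.
Mrpl10, chr11:97041437-97041465, plus strand: cccagctccaCGCATGCGCatagcggccc
Mrpl17, chr7:105811080-105811108, minus strand: ccgagttactGCGCATGCGtcctctgaga
Mrpl22, chr11:58171621-58171649, plus strand: gcctcggactGCGCATGCGtatagtcagc
Mrpl32, chr13:14613106-14613134, minus strand: tttgacccttGCGCATGCGcaagaggggc
Mrpl39, chr16:84735351-84735379, minus strand: aaggagaggcGCGCATGCGcccccgcgtg
Mrpl9, chr3:94443298-94443326, plus strand: aggcgcagctGCGCATGCGcggggtcctt
Mrps18b, chr17:35916646-35916674, minus strand: aacggcccgaCGCATGCGCactgggagca

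Of the 8 YY1 matches, 6 lay in the bases from the start on and read in the direction of the gene. They are printed in the same way, and the stretch of Mrps24 ends with the window.
Mrpl35, chr6:71823743-71823771, minus strand: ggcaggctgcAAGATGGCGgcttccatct
Mrpl37, chr4:107066822-107066850, minus strand: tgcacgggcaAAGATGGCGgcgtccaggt
Mrpl42, chr10:95501904-95501932, minus strand: agattgaagcAAGATGGCGagcgcgcggt
Mrps18a, chr17:46111005-46111033, plus strand: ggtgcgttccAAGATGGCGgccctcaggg
Mrps24, chr11:5707652-5707675, minus strand: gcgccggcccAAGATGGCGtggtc
Mrps27, chr13:99344790-99344818, plus strand: ggtgcgctccAAGATGGCGgctcccatgg

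The first comparison asks how lipodystrophy changed the family in livers with vehicle. Few members differed, and they went in both directions. By edgeR's quasi-likelihood test over all 23972 genes, 1 of the 78 genes was higher in Lmna-ADKO livers at an adjusted p under 0.05, against 8.35% of all genes, and 3 were lower, against 6.76% of all genes. None of the 78 also passed a fold change of 1.5, which 8.48% of all genes did in either direction. The median log2 fold change of the members was -0.098, with 24 of 78 above 0, and that of all genes was 0.0027. The share of members called lay below the background in both directions in this fit. With a filter on low counts it was 7.69% of members against 27.5% of the 14699 genes kept. Fitting each library's length slope as a covariate gave 25.6% of members against 22.2% of all genes.

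Mrpl16, whose product is the homologue of bacterial ribosomal protein L16 in the large subunit, was the member that rose. It lies at chr19:11770391-11774960 on GRCm38. Its level ran from 24.02 through a median of 28.9 to 31.4 CPM in control livers with vehicle and from 39.9 through a median of 41.4 to 42.3 CPM in Lmna-ADKO livers with vehicle. Every Lmna-ADKO liver lay above every control, library WT.Veh_491 included. The log2 fold change was 0.55 (SE 0.11, adjusted p = 0.0011), and without the 3 libraries it was 0.59 (SE 0.077, adjusted p = 4.29e-06). Mrpl16 was called whichever of the 13 libraries of these groups was left out, with log2 fold changes between 0.52 and 0.58. No exon of another gene in the table overlaps those of Mrpl16.

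Mrpl15, the homologue of bacterial L15, was lower in Lmna-ADKO livers. This gene lies at chr1:4773206-4785739. It ran from 50.7 through a median of 55.2 to 67.2 CPM in controls and from 35.6 through a median of 38.5 to 45.9 CPM in Lmna-ADKO livers with vehicle, again without overlap. The log2 fold change was -0.55 (SE 0.13, adjusted p = 0.0037), and without the 3 libraries it was -0.51 (SE 0.084, adjusted p = 6.59e-05). It too was called whichever of the 13 libraries was left out, with log2 fold changes from -0.60 to -0.51.

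The other genes that fell were Mrps35, which encodes a small subunit protein with no bacterial counterpart, and Mrpl14, the homologue of bacterial L14. Mrps35 ran from 23.8 through 28.1 to 32.3 CPM in controls and from 17.9 through 20.9 to 24.9 CPM in Lmna-ADKO livers. Only Lmna-ADKO library KO.Veh_8972 reached into the range of the controls. The log2 fold change of Mrps35 was -0.39 (SE 0.12, adjusted p = 0.020), and -0.34 without the 3 libraries (adjusted p = 0.014). With library WT.Veh_491 or library KO.Veh_8998 alone left out, its adjusted p was 0.055 and 0.056. Mrpl14 ran from 37.4 through 43.4 to 67.9 CPM in controls and from 30.2 through 31.3 to 40.4 CPM in Lmna-ADKO livers, with library KO.Veh_8972 alone inside the range of the controls. Its log2 fold change was -0.53 (SE 0.17, adjusted p = 0.032). Without the 3 libraries it was -0.41 (adjusted p = 0.0067). Leaving out single libraries of these groups kept the call of Mrpl14 in 6 of 13 cases, and without library WT.Veh_491, the highest control, its adjusted p was 0.098 (log2 fold change -0.42). Its exons overlap those of Tmem63b on the opposite strand over 106 bp. With the number of digits of the animal number as a covariate, which largely follows genotype in these groups, Mrpl16 and Mrpl15 were called and Mrps35 and Mrpl14 were not.

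**Figure D3:**
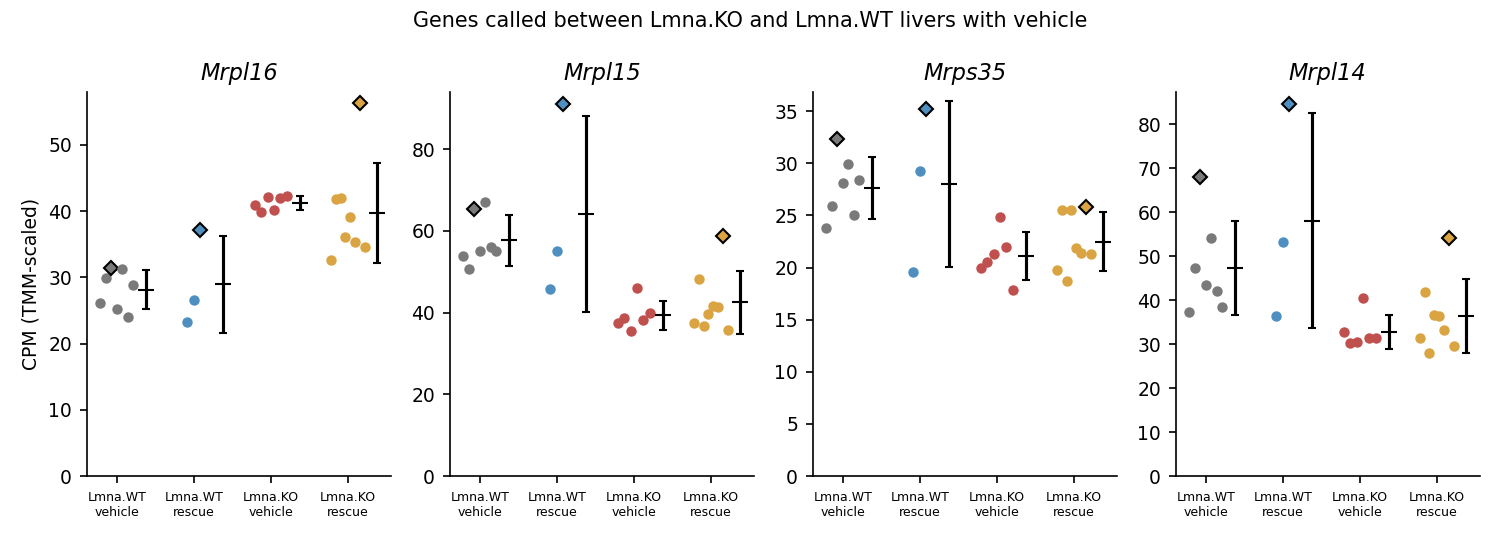
TMM-scaled CPM (y axis) of the 4 genes called between Lmna-ADKO (Lmna.KO) and control (Lmna.WT) livers with vehicle, by group (x axis). Points are libraries, diamonds the libraries KO.Tx_8974, WT.Tx_8990 and WT.Veh_491, and bars show the mean and SD. The 6 Lmna-ADKO livers with vehicle lie above all 7 controls for Mrpl16 and below all 7 for Mrpl15.

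The family split more evenly without the 3 libraries. Of the 78 genes, 5 were higher and 6 were lower, against 9.96% and 8.41% of all genes, and the median log2 fold change was -0.039 with 31 of 78 above 0. The 4 genes named above were among them, and the other 7 are named here after their values were seen. Mrpl20, a large subunit protein homologous to bacterial L20, was higher by 0.39 on the log2 scale (adjusted p = 0.0026), and Lmna-ADKO livers ran from 21.7 to 29.5 CPM against 16.9 to 24.3 CPM in controls, where library WT.Veh_491 alone lay within the Lmna-ADKO range. Mrpl57 was higher by 0.33 (adjusted p = 0.0036), Mrps28 by 0.39 (adjusted p = 0.0048) and Mrps10 by 0.30 (adjusted p = 0.0051). Mrpl47, Mrpl24 and Mrps26 had log2 fold changes of -0.32, -0.28 and -0.29 (adjusted p = 0.021, 0.023 and 0.024). Exons of Mrpl47 overlap those of Ndufb5 over 616 bp and of Actl6a over 452 bp, on the opposite strand. Those of Mrpl24 overlap Rrnad1 over 594 bp, also on the opposite strand, and whether counting used strand is not given. For Mrpl47 the Lmna-ADKO and control livers did not overlap, at 8.29 to 9.27 against 9.71 to 14.7 CPM. It was lower in Lmna-ADKO livers, so library WT.Veh_491, the highest control, could not bring the groups into overlap. Mrpl57, like Mrpl20, did not overlap apart from library WT.Veh_491. Around its own log2 mean, Mrpl57 stood at -0.064 or more in Lmna-ADKO livers and at -0.20 or less in the other controls. Library WT.Veh_491 was above each of the other 6 controls for Mrpl20, Mrpl57, Mrps28, Mrps10, Mrpl47, Mrpl24 and Mrps26. Leaving out library KO.Tx_8974 alone, which belongs to neither group but to the common fit, gave 1 higher and 6 lower genes and a median of -0.10, with 17.6% of all genes called. Among the 39 shorter members 4 were higher and 1 was lower without the 3 libraries, and among the 39 longer members 1 was higher and 5 were lower.

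Some markers of other cell types differed between these groups, in a comparison that called 8.35% of all genes higher and 6.76% lower. In Lmna-ADKO livers with vehicle the summed cholangiocyte markers ran from 85.8 to 195.6 CPM against 27.0 to 51.2 CPM in controls, with 1 of 5 higher. That marker was Spp1, which made up most of the sum, at 78.7 to 186.3 against 23.3 to 45.3 CPM. The defining markers Krt19, Krt7, Epcam and Sox9 reached at most 4.06, 2.53, 6.06 and 5.25 CPM in any library. None of these was called, but their means with vehicle were all higher in Lmna-ADKO livers. They were 1.745 against 0.93, 1.04 against 0.63, 2.72 against 1.75 and 2.85 against 2.07 CPM, and the ranges of Krt19 did not overlap. Stellate cell and fibroblast markers ran from 258.6 to 400.2 against 179.5 to 273.4 CPM, with 3 of 6 higher, and hepatocyte markers from 66300 to 101200 against 76060 to 133900 CPM, with 2 of 6 lower. The adipocyte list ran from 79.8 to 181.8 against 8.07 to 15.6 CPM with 2 of 5 higher, namely Cidec and Fabp4, whereas Adipoq, Plin1 and Lep were at 0 counts in 15, 16 and 23 of the 24 libraries. Of the endothelial markers 2 of 5 were higher and 1 was lower, and of the red blood cell markers 1 of 5 was higher. None of the 6 Kupffer cell, 6 lymphocyte and 4 neutrophil markers was called. Under rescue, with only 3 controls, the ranges were 50.3 to 241.3 against 32.2 to 38.4 CPM for cholangiocyte, 219.1 to 448.6 against 206.9 to 214.8 CPM for stellate and 42.8 to 183.6 against 9.29 to 15.8 CPM for adipocyte markers. Endothelial markers were lower, at 182.3 to 238.7 against 249.4 to 256.8 CPM, and neutrophil markers higher, at 4.08 to 12.4 against 2.39 to 3.185 CPM. The sums of the hepatocyte, Kupffer cell, lymphocyte and red blood cell markers overlapped. The part of these cell types in the differences of the Mrpl and Mrps genes was not tested.

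The second comparison sets Lmna-ADKO against control livers under rescue. The sign of its median rested on library WT.Tx_8990, 1 of only 3 controls, and the number of calls moved most with library KO.Tx_8974. By edgeR's test, 1 of the 78 genes was lower, against 1.71% of all genes, and none was higher, against 2.14%. Past the fold of 1.5 stood 1 of 78, against 2.88% of all genes. At an unadjusted p under 0.05 there were 11 members (14.1%), against 16.9% of all genes. There were 3 (3.85%) without library WT.Tx_8990, against 12.7% of all genes, and 40 (51.3%) without library KO.Tx_8974, against 21.8%. The member called was Mrpl15 again, at 45.8, 55.1 and 91.2 CPM in control livers with rescue, the last being library WT.Tx_8990. In Lmna-ADKO livers with rescue it ran from 35.8 through a median of 40.5 to 58.8 CPM, the last being library KO.Tx_8974. The groups overlapped through library KO.Tx_8974 and Lmna-ADKO library KO.Tx_690 at 48.2 CPM. The log2 fold change was -0.59 (SE 0.15, adjusted p = 0.024), and without the 3 libraries it was -0.32 (SE 0.11, adjusted p = 0.13). DESeq2 called 4 members here, Mrpl16 as higher and Mrpl15, Mrpl14 and Mrpl9 as lower. These are 5.13% of the members, and DESeq2 called 7.35% of all genes.

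Next by p were Mrpl14, Mrpl16 and Mrpl9, a homologue of bacterial L9, none of which passed. Mrpl14 stood at a log2 fold change of -0.67 (SE 0.20, adjusted p = 0.052) and -0.40 without the 3 libraries (adjusted p = 0.15). Mrpl9 had -0.36 (SE 0.12, adjusted p = 0.084) and -0.17 without them (adjusted p = 0.49). Mrpl16 stood at 23.2, 26.5 and 37.1 CPM in the control livers with rescue and ran from 32.6 through 37.55 to 56.2 CPM in Lmna-ADKO livers with rescue. Only library WT.Tx_8990 reached into the Lmna-ADKO range. The log2 fold change of Mrpl16 was 0.46 (SE 0.14, adjusted p = 0.069), and without the 3 libraries it was 0.59 (SE 0.11, adjusted p = 0.0043).

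Over the family the median log2 fold change was -0.16, with 9 of 78 above 0, against 0.018 over all genes. Without the 3 libraries it was 0.0062 with 40 of 78 above 0, and 1 member was higher (Mrpl16) and none lower, against 1.48% and 0.919% of all genes. Leaving out library WT.Tx_8990 alone gave a median of 0.12 with Mrpl16 called as higher and none as lower, against 1.6% of all genes called. Leaving out library KO.Tx_8974 alone gave a median of -0.28 with 12 members lower (15.4%), and the genes called in the whole table went from 3.85% to 7.62%. Leaving out library WT.Tx_8958, the control with the lowest level, gave a median of -0.35 with 4 members lower (5.13%), against 3.71% of all genes called. The sign of the median therefore changed with library WT.Tx_8990.

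The third comparison asks what rescue did in control livers. All 3 livers with rescue have 4-digit animal numbers, as does 1 of the 7 with vehicle, so the number of digits and treatment are largely confounded there. No member was called, and only 0.0542% of all genes were, by edgeR's test. At an unadjusted p under 0.05 there were 2 members (2.56%), against 6.16% of all genes, and DESeq2 called none. That count was 31 without library WT.Tx_8958, 14 without library KO.Tx_8974 and 11 without library WT.Veh_491, against 11.6%, 8.39% and 7.69% of all genes. The median log2 fold change was 0.18 with 73 of 78 above 0, against 0.00 over all genes. Without the 3 libraries the median was -0.040 with 24 of 78 above 0, none was called, 2 had an unadjusted p under 0.05 (5.07% of all genes did), and 0.0418% of all genes were called. Without library WT.Tx_8990 alone it was -0.10, and without library WT.Tx_8958 alone it was 0.39. The 4 members with the smallest p were Mrpl44, which carries a ribonuclease III-like fold, Mrps11, Mrpl57 and Mrpl51. Mrpl44 was at 16.7, 17.3 and 22.5 CPM with rescue against 20.7 through 21.9 to 24.6 CPM with vehicle. It is the one of the 4 with a negative log2 fold change, -0.25 (SE 0.12, adjusted p = 0.77), and without the 3 libraries it was -0.38 (adjusted p = 0.53). Mrps11 was at 13.3, 14.9 and 29.7 CPM with rescue, the last being library WT.Tx_8990, against 11.2 through 12.7 to 15.2 CPM with vehicle. Its log2 fold change was 0.57 (SE 0.28, adjusted p = 0.77) and fell to 0.16 without the 3 libraries. Mrpl57 and Mrpl51 had log2 fold changes of 0.43 and 0.32, and of 0.062 and 0.065 without them.

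The fourth comparison asks the same of Lmna-ADKO livers, where 8 with rescue stand against 6 with vehicle. No member was called, nor was any gene of the table (0.0%), by edgeR's test. No member had an unadjusted p under 0.05, although 1608 genes of the table (6.71%) did, and DESeq2 called no member and 22 genes (0.0918%). The median log2 fold change of the family was 0.092 with 67 of 78 above 0. Without library KO.Tx_8974 alone it was -0.032, and without the 3 libraries it was -0.037 with 25 of 78 above 0, 3 members (3.85%) and 9.1% of all genes at an unadjusted p under 0.05 and again no gene of the table called (0.0%). The 4 members with the smallest p were Mrpl38, Mrps34, Mrpl58 and Mrps26. MRPL58 is a peptidyl-tRNA hydrolase built into the large subunit. Mrpl38 ran from 49.4 through 61.5 to 82.4 CPM with rescue against 49.5 through 53.6 to 61.2 CPM with vehicle. Its log2 fold change was 0.24 (SE 0.12, adjusted p = 0.70), and 0.18 without the 3 libraries. Mrps34, Mrpl58 and Mrps26 had log2 fold changes of 0.25, 0.34 and 0.31, and of 0.076, 0.11 and 0.079 without them. Mrps34 shares 763 bp of exon with Nme3 on the same strand, so their reads may not be separable. Library KO.Tx_8974 gave the highest value of the group for all 4.

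**Figure D4:**
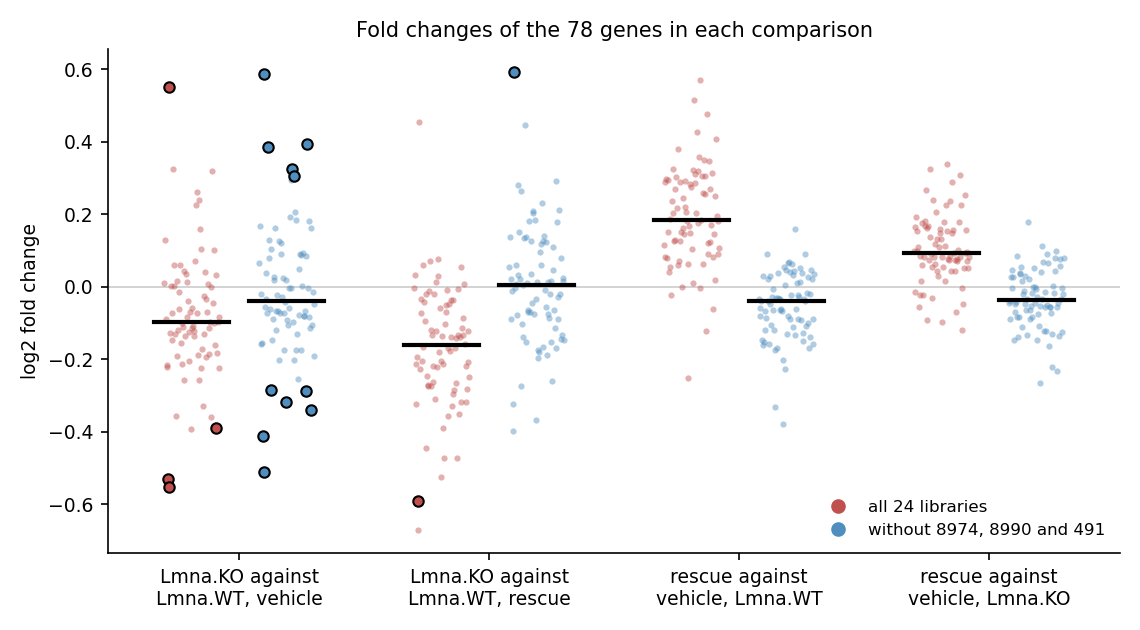
Log2 fold changes (y axis) of the 78 genes in the 4 comparisons (x axis), from all 24 libraries (red) and without libraries KO.Tx_8974, WT.Tx_8990 and WT.Veh_491 (blue). Each small point is a gene, larger outlined points are genes called at an adjusted p under 0.05, and black bars are medians. The medians with all libraries were -0.098, -0.16, 0.18 and 0.092, and without the 3 libraries they were -0.039, 0.0062, -0.040 and -0.037.

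The effect of rescue was also set against genotype by the interaction term. No member was called by edgeR's test or by DESeq2, no member had an unadjusted p under 0.05, against 4.86% of all genes, and 0.00417% of all genes were called. That count was 10 without library KO.Tx_8974, against 7.77% of all genes. The median of the interaction was -0.081 on the log2 scale with 20 of 78 above 0. Without the 3 libraries it was 0.018 with 45 above 0, and no member and 0.0209% of all genes were called. There 1 member had an unadjusted p under 0.05, against 4.76% of all genes. Without library WT.Tx_8990 alone the median of the interaction was 0.21. Mrpl44 and Mrps28 had the smallest p, with interactions of 0.28 (SE 0.15, adjusted p = 0.98) and -0.43 (SE 0.24, adjusted p = 0.98). Mrpl51 and Mrps18b followed at -0.27 and -0.21, and without library WT.Tx_8990 they stood at 0.047 and 0.034.

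Ribosomal proteins of the cytosol and nuclear subunits of the respiratory chain serve as the nearest other families. In Lmna-ADKO against control livers with vehicle the median log2 fold change was -0.26 over the 82 cytosolic ribosomal proteins, with none higher and 2 lower, and -0.022 over the 82 respiratory subunits, with none called. Of all genes, 8.35% were higher and 6.76% lower. With the 3 libraries left out the medians of the 2 families were -0.16, with 1 higher and 17 lower, and 0.054, with 5 higher and 2 lower. Of all genes, 9.96% were then higher and 8.41% lower. For rescue against vehicle in controls the medians of the 2 families were 0.40 and 0.31 beside 0.18 for the Mrpl and Mrps genes, and without the 3 libraries they were 0.024 and -0.0038 beside -0.040. The comparisons with vehicle share control libraries. A difference between the families was not tested.

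The other genes of mitochondrial translation, grouped by role, held members that passed the test in livers with vehicle. Of all genes, 8.35% were higher and 6.76% lower in that comparison, and 9.96% and 8.41% without the 3 libraries. The 5 mitoribosome proteins with other names (Dap3, Ptcd3, Aurkaip1, Chchd1 and Gadd45gip1) had log2 fold changes from -0.32 to -0.015 in Lmna-ADKO against control livers, and from -0.18 to 0.0031 with the 3 libraries left out, and none was called in either case. Of 25 factors for ribosome assembly and rRNA modification, 8 were lower and 1 was higher, with a median of -0.18. Mterf4, which brings an rRNA methyltransferase to the large subunit, fell by 0.58 on the log2 scale (SE 0.12, adjusted p = 8.4e-04), with 17.3 to 27.5 CPM in the controls and 12.3 to 16.4 CPM in the Lmna-ADKO livers, without overlap. Ngrn, a factor for the large subunit rRNA, fell by 0.50 (SE 0.10, adjusted p = 8.8e-04), and the rRNA methyltransferase Mrm1 fell by 0.71 (SE 0.15, adjusted p = 0.0011). Trub2, a pseudouridine synthase, was the factor that rose, by 0.48 (SE 0.10, adjusted p = 0.0014). Leaving out the 3 libraries again gave 8 lower factors and 1 higher, and Mterf4, Ngrn, Mrm1 and Trub2 were called with log2 fold changes of -0.51, -0.44, -0.65 and 0.46.

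Among 13 translation factors 1 was higher and 2 were lower. Beside this and the next lists stand 8.35% of all genes higher and 6.76% lower. The elongation factor Gfm1 rose by 0.37 on the log2 scale (SE 0.085, adjusted p = 0.0028), with 61.1 to 79.9 CPM in the controls and 87.4 to 102.9 CPM in the Lmna-ADKO livers. Oxa1l, which inserts new mitochondrial proteins into the inner membrane, fell by 0.48 (SE 0.097, adjusted p = 9.4e-04), and the release factor Mtrf1l fell by 0.51 (SE 0.15, adjusted p = 0.016). Of 20 genes for mitochondrial aminoacyl-tRNA synthesis 2 were higher and 2 were lower, namely Qrsl1 (log2 fold change 0.79) and Iars2 (0.43) against Vars2 (-0.28) and Hars2 (-0.26). Of 12 genes for transcription and RNA processing in mitochondria 1 was lower, the poly(A) polymerase Mtpap (log2 fold change -0.30, SE 0.089, adjusted p = 0.022). Polrmt, the RNA polymerase, stood at -0.22 (adjusted p = 0.083) and Tfam, which packages mitochondrial DNA, at -0.21 (adjusted p = 0.11). With the 3 libraries left out, the counts higher and lower were 1 and 3 for translation factors, 3 and 2 for aminoacyl-tRNA synthesis and 0 and 2 for transcription and RNA processing. In that setting 9.96% of all genes were higher and 8.41% lower. The log2 fold changes were then 0.40 for Gfm1, -0.46 for Oxa1l, -0.45 for Mtrf1l and -0.28 for Mtpap, all called, and Polrmt was called as well at -0.23 (adjusted p = 0.043). Of 9 nuclear regulators only Myc was called, with a log2 fold change of 0.95 (SE 0.21, adjusted p = 0.0022) from a low level of 2.74 CPM (SD 1.29, n = 7). Nrf1 and Esrra had log2 fold changes of -0.28 and -0.29 (adjusted p = 0.074 and 0.12). With the 3 libraries left out, Myc stood at 1.17 and was called, and Nrf1 and Esrra at -0.25 and -0.29 were not (adjusted p = 0.052 and 0.064).

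Among transcripts of the mitochondrial genome itself, mRNAs and rRNAs differed in sign. All 13 protein-coding mitochondrial mRNAs had log2 fold changes above 0 in Lmna-ADKO against control livers with vehicle, from 0.028 to 0.66. Against 8.35% of all genes called as higher, 2 of the 13 were called. These were mt-Nd5 (0.66, SE 0.17, adjusted p = 0.0063) and mt-Nd4l (0.56, SE 0.14, adjusted p = 0.0061), subunits of complex I. Of the 13, 5 were higher without the 3 libraries, mt-Nd5 and mt-Nd4l among them (0.69 and 0.60), against 9.96% of all genes. The 13 mRNAs took 4.42% to 6.42% of all counts in control and 5.79% to 6.76% in Lmna-ADKO livers with vehicle, and 8.94% in library KO.Tx_8974. Of the RNAs of the mitochondrial ribosome, mt-Rnr1 of the small subunit ran from 240.5 to 454.0 CPM in control and from 107.4 to 249.3 CPM in Lmna-ADKO livers with vehicle. It fell by 0.95 on the log2 scale (SE 0.30, adjusted p = 0.035), and mt-Rnr2 of the large subunit stood at -0.40 (SE 0.20, adjusted p = 0.22). With the 3 libraries left out mt-Rnr1 was called at -0.84 (adjusted p = 0.0052), and mt-Rnr2 stood at -0.28 (adjusted p = 0.21). These libraries were selected on poly(A) tails, and mitochondrial rRNAs carry short tails, so their counts measure the captured share.

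**Figure D5:**
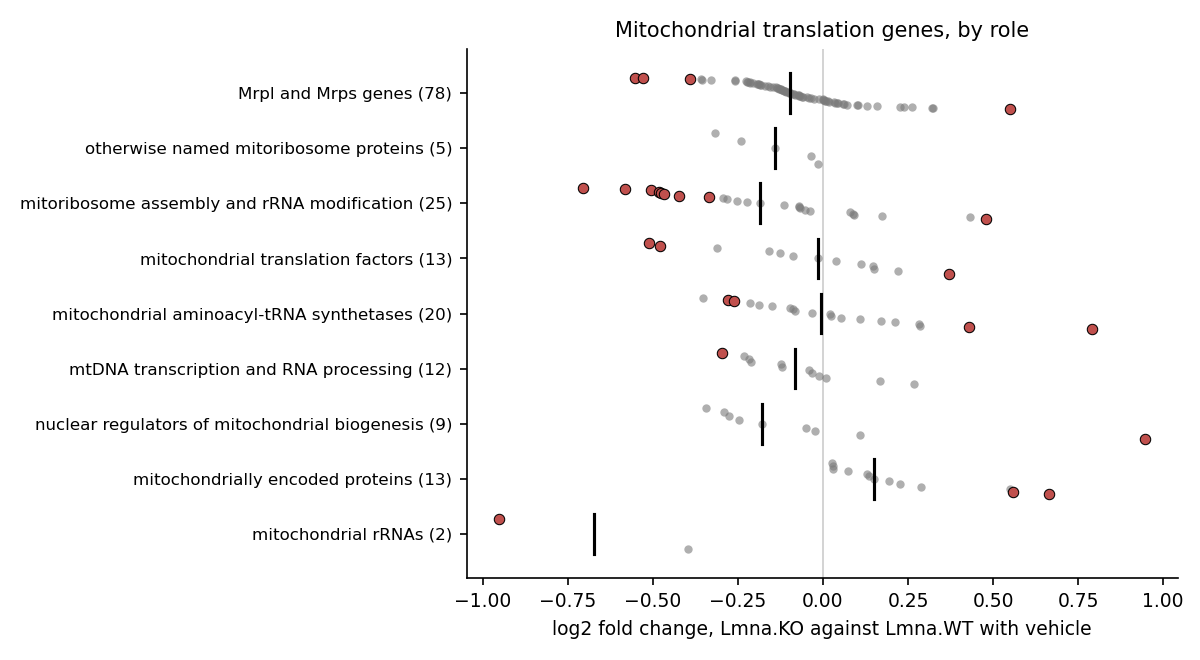
Log2 fold changes (x axis) in Lmna-ADKO against control livers with vehicle for the 78 Mrpl and Mrps genes and for 8 lists of other mitochondrial genes (y axis, number of genes in parentheses). Red outlined points are genes called at an adjusted p under 0.05 over all genes, gray points the rest, and black bars are medians. The assembly factors hold 8 lower and 1 higher genes, where 6.76% and 8.35% of all genes were called. The 13 mitochondrially encoded mRNAs all lie above 0.

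Under rescue fewer of these genes passed in Lmna-ADKO against control livers, in a comparison with 3 controls. The share of all genes called was lower too, at 3.85% against 15.1% with vehicle. Gfm1 was higher by 0.43 (SE 0.11, adjusted p = 0.018), Myc by 1.03 (SE 0.28, adjusted p = 0.030), and Mrm1 stood at -0.60 (SE 0.17, adjusted p = 0.045). The small subunit rRNA mt-Rnr1 fell by 1.51 on the log2 scale (SE 0.34, adjusted p = 0.013). Without the 3 libraries Gfm1 and mt-Rnr1 were called again (log2 fold changes 0.55 and -1.37), and Myc and Mrm1 were not (adjusted p = 0.070 and 0.12). Whether these effects differed from those with vehicle was tested by the interaction. None of the genes in the 8 lists was called there by edgeR's test, against 0.00417% of all genes.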

How the data were processed

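Counts were deposited by the authors as whole reads per gene, unnormalized, for 24 libraries made from polyA RNA with dUTP marking of the strand. Per the labels, the processing notes name FastQC 0.11.8, cutadapt 4.8, STAR 2.7.8a, RSEM 1.3.3 and GRCm38, and the methods name annotation of Ensembl 102. How counts were rounded and whether counting used strand is not given in the sources used here. The methods and the labels name different sequencing providers.

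Gene symbols and mRNA lengths came from GENCODE M21 on GRCm38, and 23926 of 23972 IDs matched. The length of a gene is that of its longest APPRIS principal transcript. Exons of 29 members overlap another listed gene, 26 on the opposite and 6 on the same strand, and reads shared with pseudogenes cannot be told from counts.

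Libraries were grouped by the labelled genotype and treatment. All genes were fitted in 1 model of the 4 groups with edgeR 4.0.16 in R 4.3.3 (TMM, robust quasi-likelihood), with Benjamini-Hochberg adjustment over all genes and a call at an adjusted p under 0.05. Standard errors are the log2 fold change divided by the root of F. CPM are TMM-scaled, and levels use log2 CPM with a prior count of 2. The script was tested on simulated data. Alternatives were DESeq2 1.42.0, its size factors, a filter on low counts, only the groups compared, the digits of the animal numbers, removal of the trend on mRNA length by a spline of 5 degrees of freedom, that length slope as a covariate, and leaving out each library or libraries KO.Tx_8974, WT.Tx_8990 and WT.Veh_491 together. Replicates are animals by number, and nothing else on cages or litters was used.

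The members and lists were chosen with earlier results of these data known. Genes were named by rule: called members, up to 8 per direction and comparison, or the 4 with the smallest p; the 3 highest and lowest per kb; the 3 shortest and longest; and up to 3 genes per list by p. Trub2 and Hars2, and the 7 members called only without the 3 libraries, were named after their values were seen. Mtrfr and Prorp were not matched and are not analysed here. Protein sequences are not used here.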

Additional observations from a re-analysis of the deposited data

Results flagged for a closer look

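Of 54 groups of 6 to 8 libraries checked, for the level of the family and the CPM of the members named in the comparisons, 13 held a library far from the others by Dixon's criterion. Its rate of about 1 in 20 by chance does not apply here, because the measures overlap and the members were named by p in the same data. In 12 of them it was library KO.Tx_8974 among the Lmna-ADKO livers with rescue. There the level of the 78 genes was 0.70 against -0.22 to 0.11 in the other 7 libraries, with 0.70 for the Mrpl and 0.69 for the Mrps genes. The genes in question stood in library KO.Tx_8974 at 56.2 CPM for Mrpl16, 39.1 for Mrps11, 37.3 for Mrpl57, 78.4 for Mrpl51, 101.5 for Mrps34, 69.2 for Mrpl58, 38.95 for Mrps26, 16.6 for Mrps28 and 63.2 for Mrps18b. These values are not independent, since they come from the same library. That library was set apart beforehand, so the flags describe it and are no test. The remaining one was Mrpl14 in Lmna-ADKO library KO.Veh_8972 with vehicle, at 40.4 CPM against 30.2 to 32.8 CPM in the other 5. Library WT.Tx_8990 could not be checked in this way, because its group holds 3 libraries.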

How the results depend on the processing

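For Lmna-ADKO against control livers with vehicle, 4 members were called in the fit of all libraries. The count was 0 with a fold of 1.5 added, 13 with only the groups compared, 2 with the digits of the animal number as a covariate, 11 without libraries KO.Tx_8974, WT.Tx_8990 and WT.Veh_491, 10 with the length trend removed and 20 with the length slope as a covariate, and 2 to 5 when 1 of the 13 libraries of these groups was left out (2 without library WT.Veh_491 or KO.Veh_8998). It was 7 without library KO.Tx_8974, which is in neither group. The 2 genes called with the covariate were Mrpl16 and Mrpl15. The genes called in the whole table moved as well, from 3623 with all libraries to 4570 with only the groups compared, 2288 with the covariate, 4395 without the 3 libraries, 4405 with the length trend removed, 5325 with the length slope as a covariate and 4225 without library KO.Tx_8974. With the length slope the share called was 25.6% of members and 22.2% of all genes. All 4 genes were among those called in the fits with more calls. For the comparison under rescue the count of 1 became 4 with a filter on low counts and with DESeq2, 0 with only the groups compared, with the covariate and with 4-digit numbers only, 5 with the length trend removed, 6 with the length slope and 1 to 12 when 1 of the 11 libraries of these groups was left out (12 without KO.Tx_8974, 4 without WT.Tx_8958, 2 without KO.Tx_690). There the genes called in the whole table went from 924 to 1762 with DESeq2, 1428 with the length trend removed, 1733 with the length slope and 360 with only the groups compared. They numbered 610 with the covariate, 324 with 4-digit numbers only, 1827 without library KO.Tx_8974, 889 without WT.Tx_8958 and 926 without KO.Tx_690. With the filter on low counts, 5.13% of members and 8.96% of the 14699 genes kept were called. Leaving out 1 library moved the median log2 fold change between -0.12 and -0.046 with vehicle, between -0.35 and 0.12 under rescue, between -0.10 and 0.39 for rescue in controls and between -0.032 and 0.13 in Lmna-ADKO livers. For the interaction it moved between -0.24 and 0.21, and Mrpl51 and Mrps18b ran from -0.47 and -0.40 without library WT.Tx_8958 to 0.047 and 0.034 without library WT.Tx_8990. With the length trend removed, the median was -0.062 with vehicle, -0.074 under rescue, 0.070 for rescue in controls and 0.021 in Lmna-ADKO livers. With the length slope as a covariate these medians were -0.014, 0.0034, -0.016 and 0.00095. No member was called for rescue in either genotype or for the interaction under any alternative. The other 210 counts and medians stayed within the limits set, a factor of 1.5 or 1 SD of the level within groups (0.25), a wide limit for medians of this size. The causes were not tested. No paired analysis was possible because the groups share no animal numbers. The animal numbers have 3 digits in 6 of 7 control and 1 of 6 Lmna-ADKO livers with vehicle, so this series and genotype are largely confounded. In control livers with rescue 0 of 3 have 3 digits, so among controls the series is largely confounded with treatment too. With the digits as a covariate the median was 0.084 for rescue in controls (61 members above 0). For the interaction it was 0.056 (47 members above 0). Depth did not limit the members.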
